A study of Mus musculus with 12 samples.

Results

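The replication-dependent histone genes are described here in mouse cells on the way from hemogenic endothelium to blood, with and without the leukaemic fusion protein RUNX1-EVI1. The genes were taken by name, as every row beginning with Hist and a cluster number from 1 to 4 followed by h, and values of repeated names were summed. This gave 69 genes of 35976 gene names in the tables. They comprised 6 linker histone H1 genes, 19 H2A, 19 H2B, 12 H3 and 13 H4 genes.

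Nucleosomes are built from the core histones H2A, H2B, H3 and H4, and H1 binds the linker DNA between them. The clustered genes are transcribed mainly in S phase, from histone locus bodies where NPAT, activated by cyclin E with CDK2, drives transcription. Their messengers are the only metazoan mRNAs without a poly(A) tail: they end in a stem-loop that SLBP binds, and the U7 snRNP directs the cut behind it. Outside S phase these messengers are degraded, so their abundance is widely read as a trait of cells that are copying DNA.

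All cells came from A2lox.cre mouse embryonic stem cells that carry a doxycycline-inducible RUNX1-EVI1 construct, the NoDox cells included, so that no group lacks the construct. Individual colonies were expanded after targeting, and the labels do not say how many entered the libraries. FLK1+ cells were taken from embryoid bodies at day 3.25 and cultured further, and the PlusDox cells received 0.5 µg/ml doxycycline for 18 h. The 6 groups were PlusDox HE1, NoDox HE1, PlusDox HE2, NoDox HE2, PlusDox HP and NoDox HP, with 2 biological replicates each, where HE1 and HE2 are hemogenic endothelium 1 and 2 and HP is hematopoietic progenitors. A doxycycline control without the construct was not analysed here, so effects of the drug and of the fusion protein cannot be told apart.

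The libraries were made from total RNA, so that RNAs without a poly(A) tail are in them, and levels are given as FPKM, fragments scaled to transcript length and library size. The number of reads per library is unknown, and no counting interval can be given. Summed over 7 endothelial markers, levels were 1230 to 1360 FPKM in PlusDox HE1 and 1099 to 1584 in NoDox HE1, against 104 to 230 FPKM over the 4 HP libraries. Summed over 8 haematopoietic markers, levels were 36.9 to 73.4 FPKM in HE1, 217 to 378 in HE2 and 459 to 628 in HP, so the populations followed their labels, and 3 pluripotency markers together reached at most 1.27 FPKM. Summed over 4 mesenchymal and smooth muscle markers, levels were 230.4 to 310 FPKM in PlusDox HE1 and 119 to 201 in NoDox HE1, 48.5 to 94.4 in PlusDox HE2 and 56.4 to 90.3 in NoDox HE2, and 30.3 to 85.7 in PlusDox HP and 37.2 to 57.4 in NoDox HP. Mecom, the mouse gene for the EVI1 moiety, had 5.18 and 5.51 FPKM in PlusDox HP, against 0.194 and 0.205 in NoDox HP. It had 18.4 and 20.2 FPKM in PlusDox HE2, against 6.08 and 13.9 in NoDox HE2, again without overlap. In HE1 Mecom overlapped between PlusDox and NoDox, at 18.1 to 23.0 against 17.0 to 28.3 FPKM. Runx1, the mouse gene for the other moiety, overlapped between PlusDox and NoDox in each population. It had 62.0 and 15.2 FPKM in PlusDox HP, against 67.4 and 56.0 in NoDox HP. In HE2 it had 35.8 and 21.3 FPKM in PlusDox, against 29.4 and 36.8 in NoDox. The libraries also fell into 2 classes by Lars2, a mitochondrial leucyl-tRNA synthetase gene, with 10223 to 19970 FPKM in 5 libraries and 24.0 to 224 FPKM in 7. The high ones were replicate 2 of PlusDox HE1, PlusDox HE2, PlusDox HP and NoDox HP, and replicate 1 of NoDox HE1. Lars2, Mir6236 and LOC101056014 together took 8.81% to 16.9% of all FPKM in the high libraries and 0.355% to 0.591% in the low ones.

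Of the 69 genes, 55 lie in the Hist1 cluster on chromosome 13, 10 in Hist2 on chromosome 3, 3 in Hist3 on chromosome 11 and 1, Hist4h4, on chromosome 6. In the GENCODE annotation 64 of 69 have a single exon, and their longest transcripts have a median length of 534 bases. The 16-letter stem-loop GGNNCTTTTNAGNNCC (N stands for any base) was found on the transcript strand in 44 of the 69 genes, against 28 of 21810 other coding genes, or 0.128%. One of those 28 is H2afx, whose transcript is known to be processed in both ways. A gene without a match has no such letters in its annotated transcripts, from which nothing follows about its processing. Of 6 distinct stem-loops, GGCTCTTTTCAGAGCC was the most common, in 26 genes, and the form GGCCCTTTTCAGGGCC was found in 7. The sites below, from GENCODE transcripts, belong to genes whose levels are given further on. The search fixed every letter other than N, so the stem-loops shown could differ only at the N positions. Capitals mark the 16 bases of the stem-loop.
Hist1h1c: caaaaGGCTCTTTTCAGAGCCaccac
Hist2h2aa1: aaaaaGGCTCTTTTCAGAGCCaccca
Hist1h2bh: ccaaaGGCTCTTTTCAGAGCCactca
Hist1h3e: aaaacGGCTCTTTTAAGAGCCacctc
Hist1h4d: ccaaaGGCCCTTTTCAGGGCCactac

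Start regions were compared in 61 of the genes, those with an entry in the RefSeq table of 250 bases before to 50 after a start (build GRCm38.p6). CCAAT, the NF-Y motif, was found on either strand in 52 of 61, in every H1, H2A, H2B and H3 gene with an entry and in 3 of 12 H4 genes, against 37.9% of 27025 promoters of all genes. TATAAA on the coding strand was found in 30 of 61, against 8.88% of all. The octamer ATTTGCAT, on either strand, was found in 7 of 17 H2A and 6 of 16 H2B promoters and in no H1, H3 or H4 promoter, against 1.75% of all. AAACACA, known from H1 promoters, was found on either strand in 5 of 6 H1 promoters, against 7.14% of all. GGTCC, known from H4 promoters, was found on either strand in 11 of 12 H4 promoters but also in 45.4% of all. A match is a description of the letters, and no binding was measured. The 150 bases before the start are shown for the H1 gene that differed with doxycycline, an H1 gene with a smaller difference, an H2B gene that rose strongly and the most abundant H4 gene, with capitals marking these 5 motifs or their reverse complements, none of which overlap in the stretches shown. They lie at chr13:21780626-21780775 on the minus strand (Hist1h1b), chr13:23738657-23738806 on the plus strand (Hist1h1c), chr13:23543445-23543594 on the minus strand (Hist1h2bh) and chr13:23581418-23581567 on the plus strand (Hist1h4d).
Hist1h1b: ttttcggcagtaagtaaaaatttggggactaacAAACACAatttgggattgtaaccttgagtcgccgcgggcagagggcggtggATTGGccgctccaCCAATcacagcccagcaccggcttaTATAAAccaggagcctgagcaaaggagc
Hist1h1c: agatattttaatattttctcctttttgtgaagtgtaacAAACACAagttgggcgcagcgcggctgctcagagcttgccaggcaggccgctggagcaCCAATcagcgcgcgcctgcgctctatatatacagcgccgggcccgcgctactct
Hist1h2bh: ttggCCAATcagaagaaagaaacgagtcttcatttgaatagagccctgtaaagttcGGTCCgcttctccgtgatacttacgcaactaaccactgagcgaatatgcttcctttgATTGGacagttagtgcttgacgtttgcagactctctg
Hist1h4d: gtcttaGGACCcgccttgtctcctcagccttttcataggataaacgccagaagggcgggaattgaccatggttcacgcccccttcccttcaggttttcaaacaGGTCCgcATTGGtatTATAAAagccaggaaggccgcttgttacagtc

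By the mean over the 12 libraries, many of the histone genes were among the most abundant transcripts, and ranks within single groups were not taken. Their summed level made up 1.52% to 6.34% of all FPKM in a library, and 1.82% to 6.37% without Lars2, Mir6236 and LOC101056014. Of the 69, 33 were among the 200 genes with the highest mean over the 12 libraries. Means over 12 libraries exceeded 100 FPKM for 61 genes and 10 FPKM for 65. The 2 most abundant genes of each type were Hist1h1e (535 FPKM) and Hist1h1c (498) for H1, Hist2h2aa1 (365) and Hist1h2ab (334) for H2A, Hist2h2bb (696) and Hist1h2br (557) for H2B, Hist1h3e (650 FPKM) and Hist1h3b (524) for H3, and Hist1h4d (1016) and Hist1h4h (520) for H4. The median gene had 449 FPKM for H1, 196 for H2A, 284 for H2B, 310 for H3 and 386 for H4. The testis-type genes stood at the other end: Hist1h2aa reached at most 0.221 FPKM, Hist1h1t ranged over 0.249 to 2.41 and Hist1h2ba, a testis-type H2B gene, over 7.16 to 50.6 FPKM. Hist2h2be, named after its values were seen, reached at most 0.870 FPKM.

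Many of these genes are near-copies of each other, which limits how far single genes can be told apart. The median gene shared 47% of its 50-base words with another of the 69, 31 genes shared more than 50% and 6 more than 90%. By type the median share was 1.1% for H1, 67.6% for H2A, 40.1% for H2B, 57.2% for H3 and 39.5% for H4. Hist1h1a, Hist1h1b, Hist1h1t, Hist2h2bb, Hist2h2be and Hist4h4 shared none, and of these 6 Hist2h2bb overlaps other genes, 1 of them antisense, while Hist1h2br shared 88.7% and Hist2h2aa1 89.2%. In GENCODE 25 of 69 genes overlap another gene, 22 of them on the opposite strand. Whether counting used strand is not given in the sources used here, so values of those genes are uncertain.

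The order of the genes by level was nearly the same in all libraries, with a Spearman correlation of 0.903 to 0.987 over the 69 genes in 66 pairs of libraries, a description over genes that share libraries and length scaling. The group with the lowest mean was PlusDox HE1 for 66 of the 69 genes, and the group with the highest was NoDox HP for 63. The map of levels relative to each gene's mean shows this as whole columns that are light or dark from H1 to H4.

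**Figure D1:**
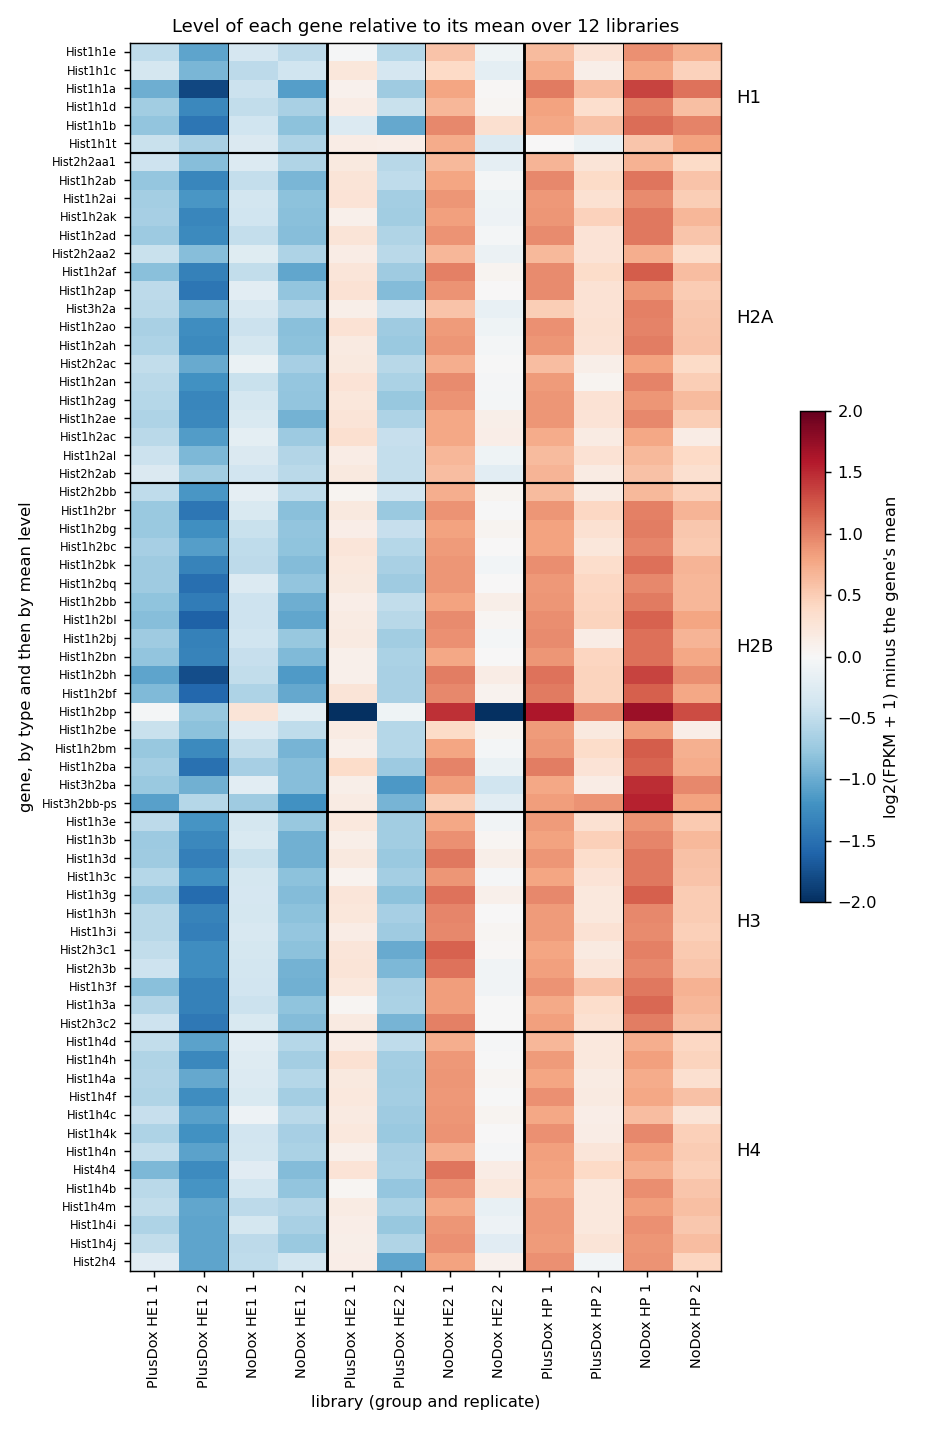
Each row is 1 of the 67 histone genes that passed the filter on low values and each column 1 library, with colour giving log2(FPKM + 1) minus the gene's mean over the 12 libraries (red above, blue below; the scale stops at 2 on either side). HE1 columns are blue for most genes and HP columns red, replicate 1 is above replicate 2 within groups, and Hist1h2bp departs from its column in 2 HE2 libraries.

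The summed level of all 69 genes was 11868 and 7736 FPKM in PlusDox HE1, 14222 and 10808 in NoDox HE1, 20205 and 11683 in PlusDox HE2, 32619.7 and 17945 in NoDox HE2, 32400.5 and 22330.1 in PlusDox HP, and 35269 and 27065 in NoDox HP. With and without doxycycline the HP libraries were above the HE1 libraries without overlap, and in each population the PlusDox and NoDox libraries overlapped. The 2 replicates of a group were far apart: replicate 1 had the higher sum in all 6 groups, by 1.303 to 1.82 times, and was higher for 67 or 68 of the 69 genes. The 41 DNA replication genes differed less between replicates, by 1.08 to 1.31 times, and the 20 mitosis genes by 1.08 to 1.37 times. Mean sums were 9802 ± 2922 FPKM in PlusDox HE1 and 12515 ± 2414 in NoDox HE1, 15944 ± 6026 in PlusDox HE2 and 25282 ± 10377 in NoDox HE2, and 27365 ± 7121 in PlusDox HP and 31167 ± 5801 in NoDox HP (SD, n = 2 each).

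**Figure D2:**
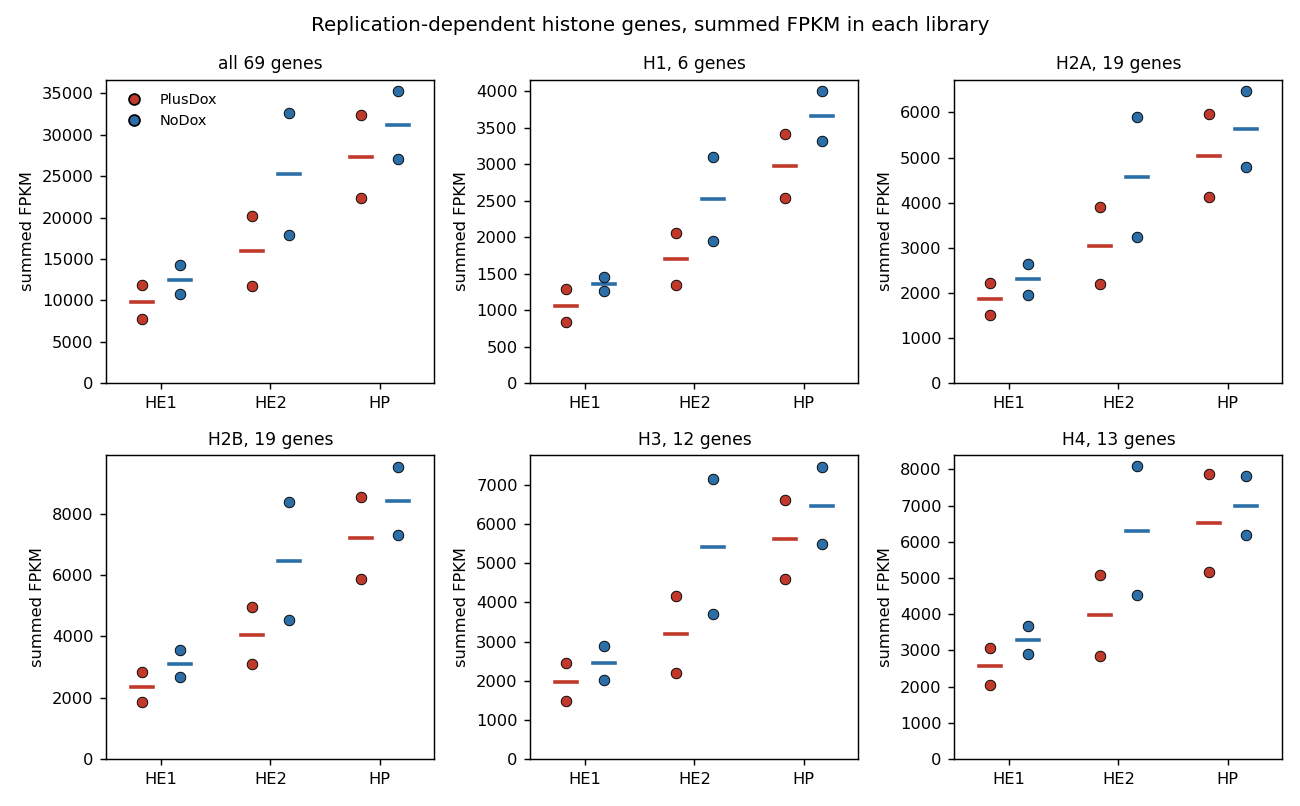
Summed FPKM of all 69 genes and of each histone type in each library; points are libraries, bars the mean of 2 replicates, with PlusDox left of NoDox in each population. The means of all 5 types are lowest in HE1 and highest in HP, and the 2 points of a group lie up to 1.82 times apart in the sum of all genes.

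The first comparison asked whether the histone genes differ between PlusDox and NoDox cells of the same population. Levels were compared by limma on log2(FPKM + 1) over 13316 genes, of which 67 are histone genes; Hist1h2aa and Hist2h2be fell below the filter. In HE2, 1 histone gene was called at an adjusted p under 0.05, Hist1h1b, which was lower in PlusDox, against 2.24% of all genes tested called lower and 6.06% called either way. In HE1, 0 of 67 were called, against 1.37% of all genes tested, and 0 of 67 had an unadjusted p under 0.05. In HP 0 of 67 were called, against 0.834% of all, and 1 had an unadjusted p under 0.05. These counts depended on the fit: with the replicate number as a block they were 1 in HE1, 53 in HE2 and 0 in HP. The labels do not tie replicate numbers to a day or batch.

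Hist1h1b encodes a linker histone subtype made in dividing cells. Its level was 195 and 116 FPKM in PlusDox HE2, against 463 and 295 in NoDox HE2, with both PlusDox libraries below both NoDox libraries. The log2 difference was -1.29 ± 0.31 (SE), with an adjusted p of 0.0313 in limma. The call did not hold without PlusDox HE2 replicate 2, where the log2 difference was -0.92 (adjusted p = 0.270), or without NoDox HE2 replicate 1, where it was -0.97 (adjusted p = 0.263). It also ended without the filter on low values (adjusted p = 0.109). Among the 7 libraries low in Lars2, which leave 1 PlusDox HE2 library, the log2 difference was -0.92. In HE1 Hist1h1b had 137 and 86.8 FPKM in PlusDox and 179 and 133 in NoDox, and in HP 405 and 357 in PlusDox and 518 and 472 in NoDox. The HE1 libraries overlapped, the HP libraries did not, and the log2 differences there, -0.50 ± 0.31 and -0.38 ± 0.31, were not called. The doxycycline difference in HE2 was not shown to be other than that in HE1, with a log2 difference between them of -0.79 ± 0.44 and an adjusted p of 0.831, nor other than that in HP (0.91 ± 0.44 for HP minus HE2, adjusted p = 0.778).

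The other H1 genes of somatic cells did not follow Hist1h1b evenly. Hist1h1c, which is also known to be expressed outside S phase, had 546 and 372 FPKM in PlusDox HE2, against 619 and 407 in NoDox HE2, with overlapping libraries and a log2 difference of -0.16 ± 0.31. Within a library the scale of that library cancels, and the ratio of Hist1h1b to Hist1h1c was 0.358 and 0.312 in PlusDox HE2, against 0.748 and 0.725 in NoDox HE2. The replicates of each HE2 group were close in this ratio and the groups were far apart. Hist1h1b is the called gene and Hist1h1c differed little, so this ratio is no separate test. In HE1 the ratio was 0.372 and 0.351 in PlusDox and 0.550 and 0.375 in NoDox, and in HP 0.519 and 0.701 in PlusDox and 0.647 and 0.734 in NoDox. The HP ratios overlapped. Hist1h1a over Hist1h1c was 0.723 and 0.615 in PlusDox HE2, against 1.05 and 0.933 in NoDox HE2, so a lower ratio was not particular to Hist1h1b. In HP that ratio was 0.988 and 1.13 in PlusDox and 1.19 and 1.23 in NoDox, and in HE1 it overlapped. Hist1h1a and Hist1h1e, with log2 differences of -0.72 ± 0.37 and -0.54 ± 0.29 in HE2, were not called.

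**Figure D3:**
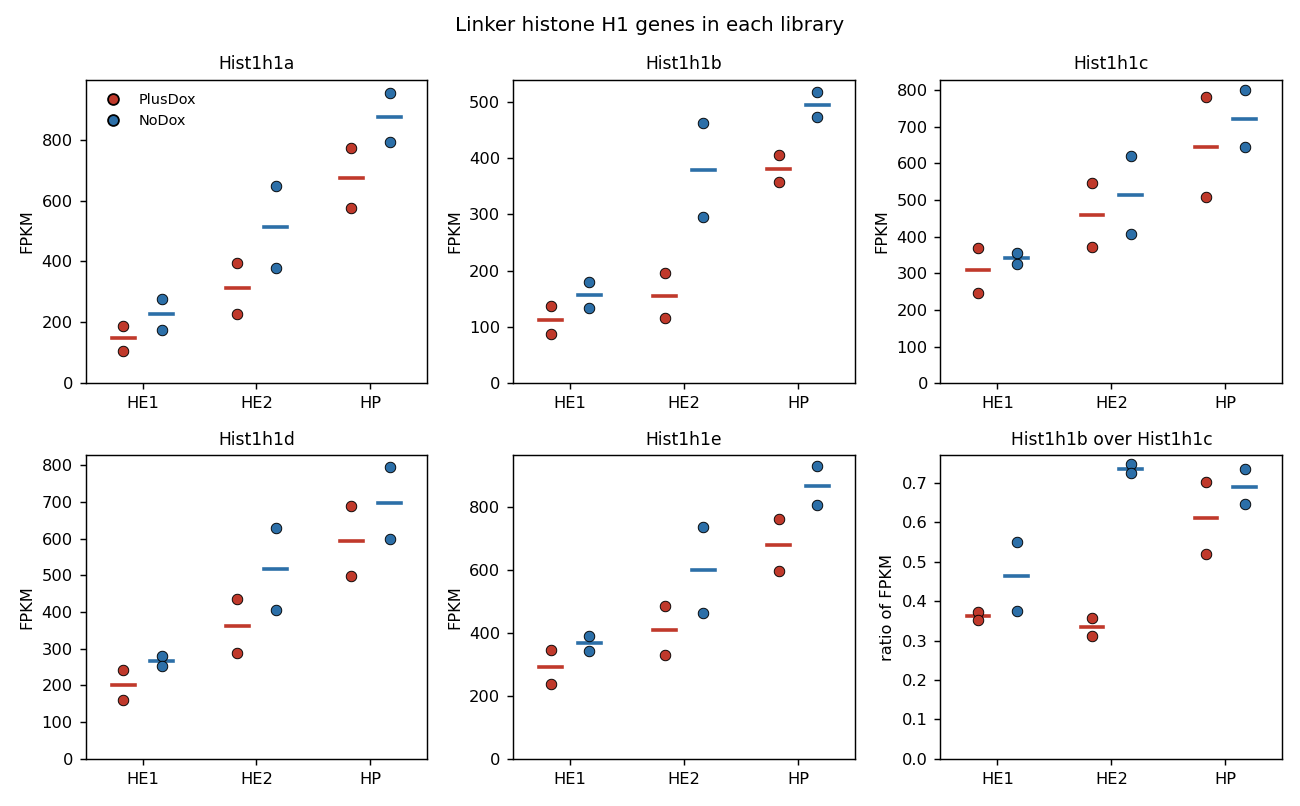
FPKM of the 5 H1 genes of somatic cells in each library and, at bottom right, the ratio of Hist1h1b to Hist1h1c; points are libraries, bars the mean of 2 replicates, PlusDox left of NoDox. The ratio is 0.312 and 0.358 in PlusDox HE2 and 0.725 and 0.748 in NoDox HE2, while Hist1h1c itself overlaps between them.

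Linker and core histone genes together were lower in PlusDox in most values, with overlapping libraries for most genes. Between libraries of the same replicate number, PlusDox was lower for 63 (replicate 1) and 66 (replicate 2) of 69 genes in HE1. In HE2 these counts were 67 and 66, and in HP 59 and 64. The labels do not tie replicate numbers to a shared batch, and no such count was made over all genes tested. The median log2 difference of the 67 genes was -0.35 in HE1, -0.66 in HE2 and -0.20 in HP, against -0.07, -0.05 and -0.00 over all genes tested. The difference was negative for 66 of 67 genes in HE1, 67 in HE2 and 64 in HP, but the genes share their libraries and are not independent. The medians over all genes tested were negative in HE1 and HE2 too, so a negative difference there is not particular to these genes. In HE2 the type medians ran from -0.52 for H1 and -0.60 for H2A over -0.65 for H2B and -0.70 for H4 to -0.77 for H3. Libraries of PlusDox and NoDox were apart, with PlusDox lower, for 3 of 69 genes in HE1 and 3 in HE2, against 22% and 28% of all genes tested, and for 6 in HP, against 13.2%. The most abundant H4 gene, Hist1h4d, is an example, with 1048 and 663 FPKM in PlusDox HE2, against 1562 and 934 in NoDox HE2; the libraries overlapped. The ratio of mean sums of PlusDox to NoDox was 0.783 in HE1, 0.631 in HE2 and 0.878 in HP, and 0.783, 0.626 and 0.887 for the 63 core histone genes alone. For all 69 it was 0.796, 0.641 and 0.862 after scaling each library to its median gene.

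The sums were also compared within the Lars2 classes. Of the 5 groups with a library of each class, the high library had the lower sum in PlusDox HE1, PlusDox HE2, PlusDox HP and NoDox HP and the higher sum in NoDox HE1. The NoDox HE2 libraries, both low in Lars2, lay 1.82 times apart. In HE1 the ratio of sums of PlusDox to NoDox was 1.10 between the low libraries and 0.544 between the high libraries. The median log2 differences were 0.15 and -0.87. The low HE1 libraries are PlusDox replicate 1 and NoDox replicate 2, and the high ones PlusDox replicate 2 and NoDox replicate 1. Replicate 1 had the higher sum in every group, so class and replicate number change together in this HE1 comparison. In HE2, 1 low PlusDox and 2 low NoDox libraries gave a ratio of 0.799 and a median of -0.25, and no high NoDox library was there to compare. In HP the ratio was 0.919 between the low and 0.825 between the high libraries. The median log2 difference in HP became 0.08 without PlusDox HP replicate 2 and -0.01 without NoDox HP replicate 1. Of 8 haematopoietic markers 4 were called higher in PlusDox HE2, against 6.06% of all genes tested called either way and 2.24% called lower. Summed over all 8, levels overlapped, at 250 to 378 FPKM in PlusDox HE2 and 217 to 324 in NoDox HE2. The 7 endothelial markers summed to 1022 to 1040.01 FPKM in PlusDox HE2 and 556 to 891 in NoDox HE2. The part of the haematopoietic, endothelial and mesenchymal markers in the histone values was not tested. In bulk RNA, fewer cells in S phase and less histone RNA per cell cannot be told apart.

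**Figure D4:**
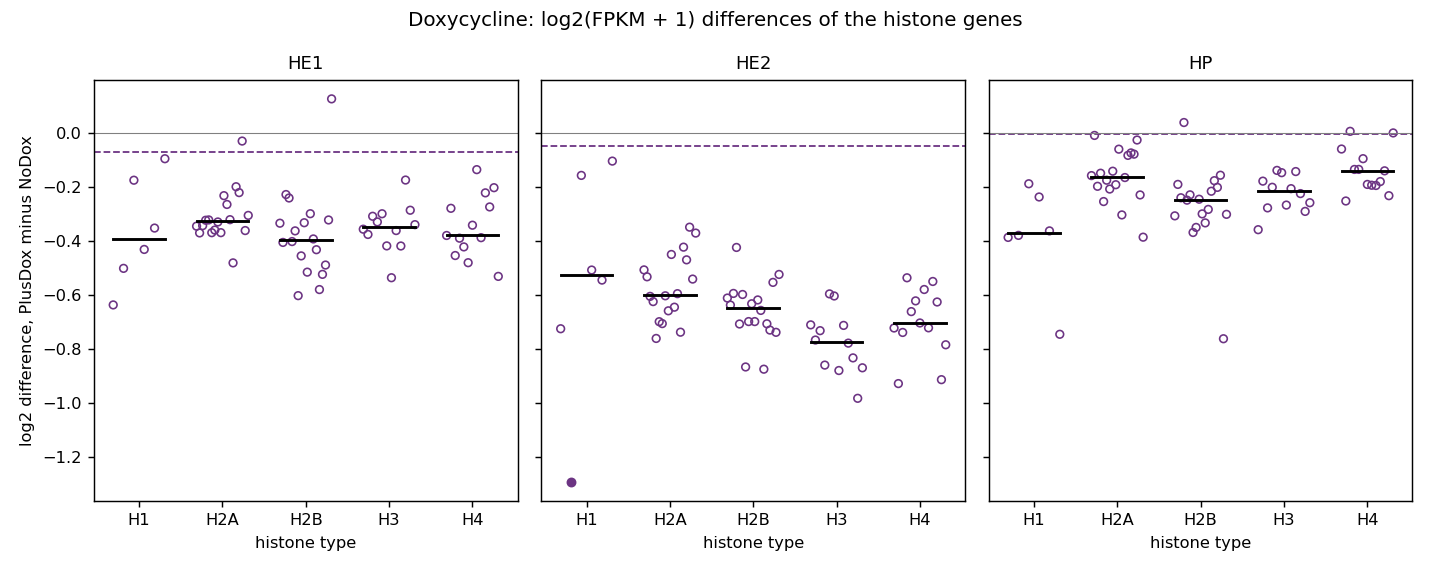
Log2 differences of PlusDox minus NoDox for the 67 histone genes by type in HE1, HE2 and HP; filled points passed an adjusted p of 0.05, black bars are type medians and dashed lines the median of all genes tested. Nearly all points lie below the dashed line, and Hist1h1b in HE2, at -1.29, is the filled one.

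Genes that make, handle and use histones were compared through lists, beside the same 13316 genes. Of these, 2.24% were called lower in PlusDox HE2. For transcription of histone genes (15 genes), 1 fell in PlusDox HE2, Ccne1, the cyclin E gene, at a log2 difference of -1.03 ± 0.25 (adjusted p = 0.0316). Npat itself had 9.30 and 10.4 FPKM in PlusDox HE2 and 9.27 and 10.9 in NoDox HE2, which overlap. For processing and decay (19 genes), 1 fell, Ncbp2, the small subunit of the cap-binding complex, with 11.2 and 11.6 FPKM in PlusDox HE2 and 25.2 and 24.9 in NoDox HE2 (log2 difference -1.07 ± 0.18, adjusted p = 0.00583). Of 24 chaperone and deposition genes, Asf1b, an H3-H4 chaperone, and Dnajc9, a co-chaperone that binds H3-H4, fell in PlusDox HE2, by 0.78 and 0.71 on the log2 scale.

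DNA replication genes fell with doxycycline in HE2 in 4 of 41 cases: Rrm2, a subunit of ribonucleotide reductase (log2 difference -1.50 ± 0.23), Lig1 (-1.05 ± 0.26), Uhrf1 (-1.02 ± 0.26) and Mcm4 (-0.84 ± 0.20). Of 20 mitosis genes Aurka and Birc5 fell, by 1.18 and 0.88 on the log2 scale. None rose in these 5 lists, the list medians in HE2 were -0.29, -0.21, -0.50, -0.56 and -0.49 in the order given, and no gene of them was called in HE1 or HP. The sum of the histone genes over that of the 41 replication genes in the same library was 13.1 and 9.91 in PlusDox HE2, against 14.4 and 9.68 in NoDox HE2. These ratios overlapped, as they did in HE1 and HP. Of 10 other RNAs without a poly(A) tail, among them Rmrp, Rpph1 and Rn7sk, 0 were called by limma in any population, against 6.06% of all genes in HE2, and 1 in HE1, 0 in HE2 and 0 in HP had an unadjusted p under 0.05. The difference was negative for 1 of 10 in HE1, 3 in HE2 and 1 in HP, with medians of 0.26, 0.11 and 0.34.

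The second comparison followed the histone genes along HE1, HE2 and HP, within PlusDox and within NoDox. Histone genes rose together between HE1 and HP in both. In PlusDox, 64 of 67 were called higher in HP than in HE1, against 22.3% of all genes tested called higher and 38.7% called either way. In NoDox, 62 of 67 were called higher, against 22% of all called higher and 40.6% either way. No histone gene was called lower in either. The median log2 difference of HP minus HE1 was 1.50 in PlusDox and 1.36 in NoDox, against 0.18 and 0.14 over all genes, and the mean sum was 2.79 and 2.49 times that of HE1.

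The largest called differences belonged to H1 and H2B genes. Hist1h1a, a linker histone subtype of dividing cells, had 771 and 576 FPKM in PlusDox HP, against 189.6 and 105 in PlusDox HE1, and 955 and 793 in NoDox HP, against 278 and 174 in NoDox HE1. All HP libraries lay above all HE1 libraries. The log2 differences were 2.23 ± 0.37 in PlusDox (adjusted p = 0.000571) and 1.98 ± 0.37 in NoDox (adjusted p = 0.00124). Hist1h2bh, an H2B gene, followed with 2.19 ± 0.38 and 1.95 ± 0.38, and Hist1h2bf with 1.96 ± 0.38 and 1.81 ± 0.38. Hist3h2bb-ps, annotated as a pseudogene, rose by 2.13 ± 0.38 in NoDox at a low level, with 24.2 and 14.1 FPKM in NoDox HP, against 4.31 and 2.74 in NoDox HE1.

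The most abundant gene of every type had a difference below the median of all 67. For H1 this was Hist1h1e, with 761 and 595 FPKM in PlusDox HP, against 346 and 237 in PlusDox HE1. Hist1h1c, the next H1 gene by level, also lay below that median. Hist1h4d had 1491 and 1097 FPKM in PlusDox HP, against 673 and 449 in PlusDox HE1, and 1559 and 1263 in NoDox HP, against 818 and 633.5 in NoDox HE1. HP and HE1 libraries did not overlap, and the log2 differences were 1.22 ± 0.33 and 0.96 ± 0.33 (adjusted p = 0.0128 and 0.0368). Hist1h3e, the most abundant H3 gene, had log2 differences of 1.43 ± 0.38 in PlusDox and 1.27 ± 0.38 in NoDox, and Hist2h2bb, the most abundant H2B gene, 1.24 ± 0.31 and 0.91 ± 0.31. The next most abundant H4, H3 and H2B genes lay closer to or above that median, Hist1h4h at 1.48 ± 0.39 and 1.10 ± 0.39, Hist1h3b at 1.65 ± 0.36 and 1.45 ± 0.36 and Hist1h2br at 1.73 ± 0.38 and 1.41 ± 0.38. Of the H2A genes, Hist2h2aa1 had 1.11 ± 0.32 in PlusDox and 0.98 ± 0.32 in NoDox, and Hist1h2ab 1.71 ± 0.35 and 1.52 ± 0.35. By type the median for PlusDox and for NoDox was 1.40 and 1.31 for H1, 1.51 and 1.32 for H2A, 1.70 and 1.56 for H2B, 1.50 and 1.41 for H3, and 1.33 and 1.17 for H4. By cluster it was 1.53 and 1.39 for the 54 Hist1 genes tested, 1.12 and 0.99 for 9 in Hist2, 1.32 and 1.76 for 3 in Hist3, and 1.68 and 1.15 for Hist4h4. Differences between types and clusters were not tested.

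The genes not called were Hist1h1t, Hist1h2bp and Hist2h4 in PlusDox, and Hist1h2ac, Hist1h2bp, Hist1h4a, Hist1h4c and Hist2h4 in NoDox, all with a positive difference. Single libraries decided part of these counts. In PlusDox the count was 20 without PlusDox HE1 replicate 2 and 22 without PlusDox HP replicate 1. In NoDox it was 15 without NoDox HE1 replicate 2 and 15 without NoDox HP replicate 1. In the 7 libraries low in Lars2, where only NoDox HE2 kept 2 libraries, the median log2 difference was 1.48 in PlusDox and 1.77 in NoDox. That NoDox value sets HP replicate 1 against HE1 replicate 2, and replicate 1 had the higher sum in every group. Libraries of HP were above those of HE1 without overlap for all 69 genes in PlusDox, against 40.7% of all genes tested, and for 68 in NoDox, against 44%.

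The steps on either side of HE2 held fewer calls in limma without a replicate block. With the replicate number as a block, 47 genes in PlusDox and 64 in NoDox were called for HE2 minus HE1. For HP minus HE2 that block gave 64 in PlusDox and 11 in NoDox. The labels do not tie replicate numbers to a day or batch, and the counts that follow are without the block. For HE2 minus HE1 in PlusDox 0 of 67 were called, against 8.59% of all genes tested, and 16 had an unadjusted p under 0.05. For HE2 minus HE1 in NoDox, 4 of 67 were called, all higher, against 5.67% of all genes called higher and 10.1% either way, and 60 had an unadjusted p under 0.05. They were Hist1h2bh (log2 difference 1.40 ± 0.38, adjusted p = 0.0374), Hist1h2bf (1.33 ± 0.38), Hist1h1b (1.25 ± 0.31) and Hist1h2bb (1.15 ± 0.33). None of the 4 held without NoDox HE1 replicate 2 or without NoDox HE2 replicate 1, whereas 40 were called without NoDox HE2 replicate 2. The median log2 difference was 0.68 in PlusDox and 1.01 in NoDox. HE2 libraries lay above HE1 libraries without overlap for 28 of 69 genes in PlusDox, against 37.9% of all genes tested, and for 66 in NoDox, against 45.6%.

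For HP minus HE2 in PlusDox, 2 were called, both higher, against 5.96% of all genes called higher and 16.9% either way: Hist1h1b, at 1.33 ± 0.31 (adjusted p = 0.0105), and Hist3h2bb-ps, at 1.26 ± 0.38 (adjusted p = 0.0399), while 31 had an unadjusted p under 0.05. Neither call held without PlusDox HE2 replicate 2 or without PlusDox HP replicate 1, and 12 were called without PlusDox HE2 replicate 1. For HP minus HE2 in NoDox 0 were called, against 16% of all, and 2 had an unadjusted p under 0.05. The median log2 difference was 0.82 in PlusDox and 0.35 in NoDox, where it became -0.09 without NoDox HE2 replicate 2. HP libraries lay above HE2 libraries without overlap for 49 genes in PlusDox, against 23.5% of all, and for 7 in NoDox, against 22.2%. HE2 values enter both steps, so these medians are not independent of each other. The difference of the doxycycline effect between populations was called for 0 of 67 genes in HE2 against HE1, HP against HE2 and HP against HE1, with 0 unadjusted p under 0.05 in each, beside 0.0451%, 0.015% and 0.0375% of all genes.

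**Figure D5:**
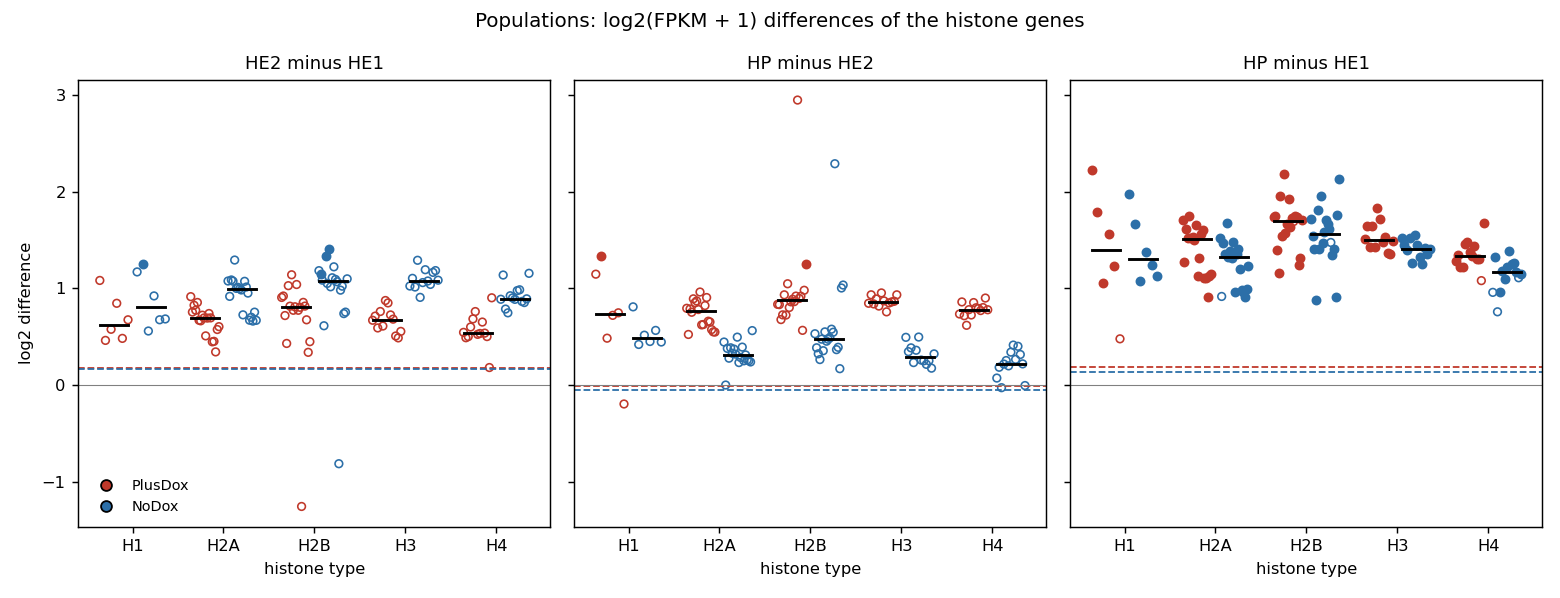
Log2 differences between populations for the 67 histone genes by type, PlusDox left of NoDox; filled points passed an adjusted p of 0.05, black bars are type medians and dashed lines the medians of all genes tested. In HP minus HE1, 64 PlusDox and 62 NoDox points are filled; Hist1h2bp gives the points furthest from their type in the other panels.

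The make-up of the histone messages shifted slightly between populations. H4 over H2B, as summed FPKM within a library, was 0.919 and 0.878 in PlusDox HP, against 1.08 and 1.11 in PlusDox HE1, and 0.819 and 0.847 in NoDox HP, against 1.03 and 1.09 in NoDox HE1. HP and HE1 libraries did not overlap in this ratio. H2B over H2A was 1.44 and 1.43 in PlusDox HP, against 1.28 and 1.23 in PlusDox HE1, and 1.47 and 1.53 in NoDox HP, against 1.35 and 1.36 in NoDox HE1, again without overlap. H1 over the core histones overlapped between PlusDox HP (0.118 and 0.128) and PlusDox HE1 (0.121 and 0.121), and between NoDox HP (0.128 and 0.140) and NoDox HE1 (0.114 and 0.132). With 2 libraries against 2 an exact permutation test cannot pass 0.05, and none was run.

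Genes of the same pathway rose between HE1 and HP as well. Of 41 DNA replication genes, 39 were called higher in PlusDox and 36 in NoDox, against 22.3% and 22% of all genes tested. Their median log2 differences were 1.00 and 0.97. Tk1, thymidine kinase, rose by 1.48 ± 0.25 and 1.44 ± 0.25. Of 20 mitosis genes 17 and 14 rose, with medians of 0.92 and 0.80. The histone genes over the replication genes, as summed FPKM within a library, gave 13.3 and 11.6 in PlusDox HP, against 9.88 and 8.43 in PlusDox HE1, and 12.9 and 11.6 in NoDox HP, against 10.6 and 8.66 in NoDox HE1. The HP libraries lay above the HE1 libraries in both. Endothelial and mesenchymal marker sums were lower and haematopoietic ones higher in HP than in HE1, and their part in the histone values was not tested. In each group replicate 1 was above replicate 2.

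Among the regulators, Slbp, the stem-loop binding protein, had 62.7 and 56.1 FPKM in PlusDox HP, against 30.2 and 26.9 in PlusDox HE1, and 82.2 and 68.0 in NoDox HP, against 34.6 and 33.4 in NoDox HE1. HP and HE1 were apart, and the log2 differences were 1.03 ± 0.17 and 1.11 ± 0.17 (adjusted p = 0.000428 and 0.000227). E2f2, an E2F transcription factor, rose by 2.12 ± 0.22 and 2.03 ± 0.22, Ccne1 by 1.12 ± 0.25 and 1.52 ± 0.25 and Ccne2 by 1.00 ± 0.22 and 1.39 ± 0.22. In all, 6 of 15 transcription genes were called higher in PlusDox and 5 in NoDox, against 22.3% and 22% of all genes tested. The counts were 7 and 8 of 19 processing and decay genes, and 11 and 10 of 24 chaperone and deposition genes. Asf1b and Hat1, the acetyltransferase of new H4, were among the last. No gene of these lists fell, and whether the counts exceed the share over all genes was not tested. Rnu7, the RNA of the U7 snRNP, rose in PlusDox by 1.29 ± 0.34.

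Histone variants, whose genes lie outside the clusters and mostly give polyadenylated messages, went both ways. Between HE1 and HP 5 of 12 rose in each of PlusDox and NoDox, while 2 fell in PlusDox and 1 in NoDox. Of all genes tested, 22.3% and 22% were called higher, and 38.7% and 40.6% either way. H2afz, for H2A.Z, had 449 and 438 FPKM in PlusDox HP, against 137 and 157 in PlusDox HE1, and 764 and 649 in NoDox HP, against 234 and 204 in NoDox HE1. Its log2 differences were 1.59 ± 0.20 and 1.68 ± 0.20. H2afx, which carries the stem-loop, rose by 1.28 ± 0.28 and 1.44 ± 0.28. H2afy2, for macroH2A2, was opposite, with 0.987 and 1.11 FPKM in PlusDox HP, against 8.63 and 7.82 in PlusDox HE1, and 1.09 and 1.06 in NoDox HP, against 10.4 and 13.2 in NoDox HE1. It fell by 2.17 in PlusDox and by 2.62 in NoDox on the log2 scale, both with a standard error of 0.20.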

How the data were processed

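RNA was measured in 12 libraries of sorted mouse cells, stranded total RNA, sequenced as 1 pool, per the labels' protocols. Reads were trimmed with Trimmomatic 0.32, aligned to mm10 with HISAT2 2.1.0 and quantified with StringTie 1.3.3, per the submitters' processing notes; no annotation version is named there. The deposited values were taken as FPKM from the tool named and from their range. They hold no counts, whole reads could not be recovered (relative depth agreed within 0.1 log2 in 36 of 66 library pairs), and depth is unknown.

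Groups and replicates follow the sample titles. Rows with the same name were summed. Genes with at least 1 FPKM in at least 2 of 12 libraries (13316) were fitted with limma 3.58.1 in R 4.3.3, on log2(FPKM + 1), with 6 group means, an intensity trend and Benjamini-Hochberg adjustment over all genes; 6 residual degrees of freedom carry 2 replicates a group, and p-values measure the spread between these samples. The fold of low genes is understated on this scale. The fit was tested on simulated data. The members and lists were chosen with earlier results of these data known. Named genes are the 2 most abundant of each type, up to 10 called members a direction and up to 6 called genes a direction of each list. Stem-loops came from GENCODE M21 transcripts and promoters from RefSeq (68 of 69 names matched). Alternatives were another pseudocount, no filter, median and quantile scaling, a term for the Lars2 class, the replicate number as a block, each library left out, and 2 chosen after seeing the data: the 7 libraries low in Lars2 alone, and sums without Hist1h2bp. Figures were drawn with matplotlib 3.10.9.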

Additional observations from a re-analysis of the deposited data

How the results depend on the processing

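Counts of called histone genes depended on the processing. No named gene that was called reversed under any alternative, but sign changes of genes called in neither fit were not counted. Ratios of sums did cross 1. PlusDox over NoDox in HP, below 1 with all libraries, was 1.04 without PlusDox HP replicate 2. HP over HE2 in NoDox, above 1 with all libraries, was 0.955 without NoDox HE2 replicate 2. The sums over all 69 genes, scaled by medians, stayed within the spread of replicates. Without the filter on low values, when all 69 genes were tested among 24684, the count was 0 for doxycycline in HE2, 0 for HP minus HE2 and 46 for HP minus HE1 in PlusDox, and 0 for HE2 minus HE1 and 31 for HP minus HE1 in NoDox. With a pseudocount of 0.1 it was 1 for HP minus HE2 in PlusDox and 2 for HE2 minus HE1 in NoDox. Quantile scaling gave 1 for HE2 minus HE1 and 5 for HP minus HE2 in PlusDox and 8 for HE2 minus HE1 in NoDox, and median scaling gave 9 for HP minus HE2 in PlusDox. With a term for the Lars2 class the count was 1 for HE2 minus HE1 and 7 for HP minus HE2 in PlusDox, and 1 for each of these steps in NoDox. In the libraries low in Lars2 alone, an alternative chosen after seeing the data with fewer samples, it was 0 for doxycycline in HE2, 0 for HP minus HE2 and 6 for HP minus HE1 in PlusDox, and 0 for HE2 minus HE1 and 36 for HP minus HE1 in NoDox. The cause of these shifts was not tested beyond the numbers of genes and samples. Replicate numbers are shared by all groups, but the labels do not tie them to a day or batch; deviations of same-numbered libraries correlated at -0.1 to 0.526, over 0.1 in 12 of 15 pairs of groups. With the replicate block the counts were 1, 53 and 0 for doxycycline in HE1, HE2 and HP, 47, 64 and 65 along the 3 population steps of PlusDox (HE2 minus HE1, HP minus HE2, HP minus HE1), and 64, 11 and 66 along those of NoDox. Leaving out each library in turn gave 0 to 1 for doxycycline in HE2, 0 to 12 for HP minus HE2 and 20 to 65 for HP minus HE1 in PlusDox, 0 to 40, 0 to 3 and 15 to 65 along the NoDox steps, and 0 in the other comparisons. The ratio of sums then ranged over 0.618 to 0.948 in HE1, 0.462 to 0.889 in HE2 and 0.716 to 1.04 in HP for PlusDox over NoDox. Without counts, depth sets a limit that cannot be stated.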

Other observations

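Hist1h2bp, an H2B gene named after its values were seen, stood apart from its type in 2 libraries. It had 15.5 and 146 FPKM in PlusDox HE2 and 427 and 18.0 in NoDox HE2, against 90.3 to 505 in the other 8 libraries. PlusDox HE2 replicate 1 and NoDox HE2 replicate 2 were the low ones, and the groups overlapped. Without Hist1h2bp, a setting chosen after seeing the data, the sum of the remaining 68 genes in PlusDox over NoDox was 0.784 in HE1, 0.633 in HE2 and 0.878 in HP.

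Hist4h4, the H4 gene outside the other clusters, was close in its HP means, at 372 ± 73.2 FPKM in PlusDox and 370 ± 45.5 in NoDox (SD, n = 2 each), and had 225 ± 96.2 in PlusDox HE2 and 389 ± 172 in NoDox HE2. It was named after its values were seen.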
